A study of Mus musculus with 4 samples.

Results

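The MHC class II pathway was followed through 9 genes of the 27179 in the deposited count table: Ciita, Cd74, H2-Aa, H2-Ab1, H2-Eb1, H2-DMa, H2-DMb1, H2-DMb2 and Ctss. They were chosen by name, by matching each symbol to its NCBI gene ID, and the rule uses no measured value, though it was set with earlier results of these data known. All 9 were found, once each. Gene expression was measured by poly-A RNA-seq in MC38, a mouse colon carcinoma line derived from a C57BL/6 tumor and labelled as wild type. The 4 conditions were untreated cells in normoxia (20% oxygen), untreated cells in hypoxia (1.5% oxygen), IFN-γ-treated cells in normoxia and IFN-γ-treated cells in hypoxia. The study's methods give 5 ng/mL for 24 h as the IFN-γ treatment of most of its experiments, without naming the sequenced cultures. Each condition was 1 library, so no value below has a replicate, and fewer expressing cells and less RNA per cell cannot be told apart in these bulk samples.

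MHC class II molecules are pairs of an α and a β chain that show peptides to CD4+ T cells. They are made all the time by dendritic cells, macrophages and B cells, and in most other cells only after IFN-γ. CIITA, the class II transactivator, does not bind DNA. It is recruited to the promoters of class II genes by a complex of RFX, CREB and NF-Y that sits on the X and Y boxes, and it is itself induced by IFN-γ, in part through IRF1. The invariant chain, encoded by Cd74, fills the groove of a new class II molecule, cathepsin S (Ctss) trims it, and the H2-DM heterodimer removes the last fragment so that peptide can bind.

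Letters of the X and Y boxes were searched for in the promoters with RefSeq sequence at hand, and not every window held them. These were 7 windows of 250 bases for 6 of the 9 genes. H2-Eb1, H2-DMb1, H2-Aa and Ctss are shown because they carry the matches nearest to the start and because their transcripts are those compared below. Each is written 5′ to 3′ on the strand of its gene and ends at the base before the annotated start (GRCm38.p6). Capitals mark matches to the motifs searched: AGNNACNG for the X core bound by RFX, ATTGG for the site of NF-Y, CTGATTGG for the full Y box, GAAANNGAA for an IRF site and CACGTG for a USF1 site, each on both strands.
H2-Eb1 (plus strand, chr17:34305617-34305866): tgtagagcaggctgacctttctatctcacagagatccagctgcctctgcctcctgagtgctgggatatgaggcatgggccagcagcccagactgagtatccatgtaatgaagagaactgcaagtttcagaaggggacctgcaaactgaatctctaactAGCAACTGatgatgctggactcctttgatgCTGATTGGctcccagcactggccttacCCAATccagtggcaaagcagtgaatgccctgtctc
H2-DMb1 (plus strand, chr17:34152941-34153190): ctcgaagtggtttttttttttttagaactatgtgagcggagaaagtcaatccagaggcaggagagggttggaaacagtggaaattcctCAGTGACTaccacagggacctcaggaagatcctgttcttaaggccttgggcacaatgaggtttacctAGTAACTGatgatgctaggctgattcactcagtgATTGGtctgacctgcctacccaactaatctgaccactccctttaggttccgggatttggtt
H2-Aa (minus strand, chr17:34287824-34288073): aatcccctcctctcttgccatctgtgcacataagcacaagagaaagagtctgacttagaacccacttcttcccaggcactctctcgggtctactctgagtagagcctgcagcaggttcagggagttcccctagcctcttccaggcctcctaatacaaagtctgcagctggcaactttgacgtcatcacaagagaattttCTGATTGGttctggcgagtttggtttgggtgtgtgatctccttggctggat
Ctss (plus strand, chr3:95526536-95526785): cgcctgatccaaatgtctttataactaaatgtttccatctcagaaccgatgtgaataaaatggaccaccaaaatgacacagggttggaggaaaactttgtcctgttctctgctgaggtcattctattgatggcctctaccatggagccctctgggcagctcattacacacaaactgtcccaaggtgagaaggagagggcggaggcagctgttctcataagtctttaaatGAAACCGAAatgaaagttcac

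H2-Eb1 and H2-DMb1 were the windows that held an exact X core followed by ATTGG on the same strand. In H2-Eb1 the X core AGCAACTG began 92 bases before the start and the Y box 62 bases before it, with 25 bases between the X core and the NF-Y letters. The spacing was 26 bases in H2-DMb1, where the X core AGTAACTG began at 95 and ATTGG at 61. An X core followed on the same strand by ATTGG with 10 to 40 bases between them was present in 1.33% of 32851 RefSeq promoters, against 43.6% for the X core and 33.8% for ATTGG alone. H2-Aa held the full Y box, found in 3.83% of all promoters, 51 bases before the start, and no exact match to AGNNACNG. Only exact letters were searched, so an X box that differs from this pattern by a base would be missed. The site of CREB was not searched. Ctss held an IRF core, GAAACCGAA, 21 bases before its start, and 7.13% of all promoters have such letters. The full Y box overlaps ATTGG by construction.

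The H2-DMb2 window resembled that of its neighbour H2-DMb1, with 174 of 209 aligned bases identical (83.3%), whereas every other pair of windows lay between 49.1% and 68.8%. It held ATTGG at 90 bases and no exact match to the X core, and a copy with changed bases would be missed here too. Of the 2 windows of H2-DMa, the first held an X core at 179 bases and the second ATTGG at 198. They precede different annotated starts, and both lie inside the gene's annotated span. The first, chr17:34122582-34122831, overlaps the end of Brd2 at 34122814, a gene on the opposite strand. No window held the USF1 letters, which 6.02% of promoters have. Ciita, Cd74 and H2-Ab1 had no window, so their promoters were not searched for any motif. A match is a description of letters only.

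**Figure D1:**
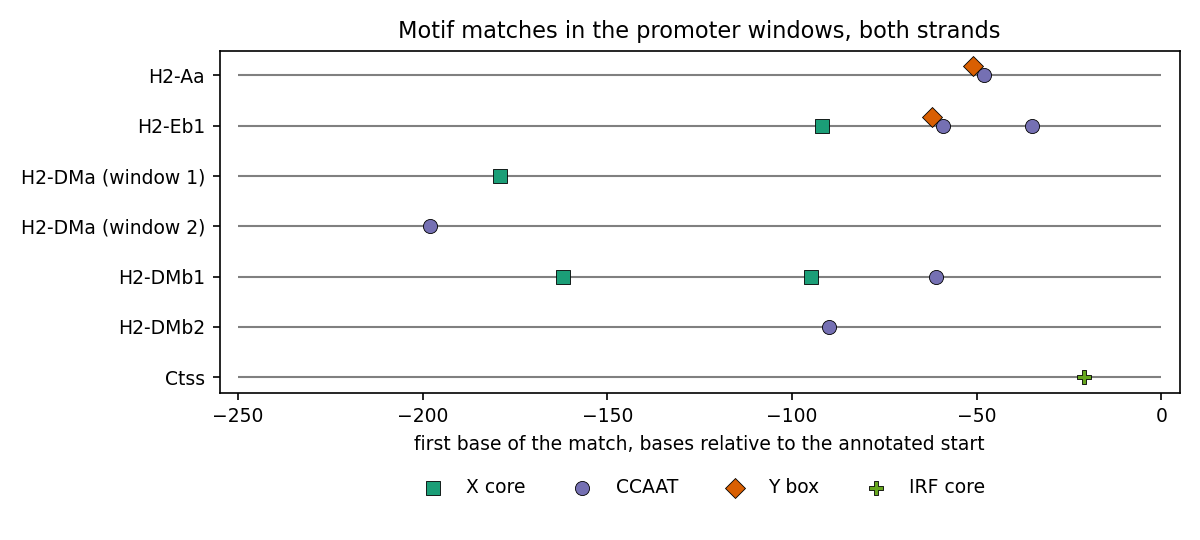
Position of each motif match (symbols) in the 250 bases before the annotated start (horizontal axis, bases) of the 7 promoter windows, both strands searched. H2-Eb1 and H2-DMb1 have an X core followed by ATTGG, at 92 and 59 bases and at 95 and 61 bases, and the IRF core of Ctss lies 21 bases from its start.

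The 4 libraries held between 34302971 and 34537939 counts on genes, and 3 counts, taken as the floor, correspond to 0.0866 to 0.0876 CPM, counts scaled to library size. The class II genes took 727, 762, 1114 and 1302 of these counts in untreated normoxic, untreated hypoxic, IFN-γ normoxic and IFN-γ hypoxic cells, the order kept throughout. Of 10 markers of intestinal epithelium, 5 were at or under the floor in every library, among them Cdh1, Cdx1 and Cdx2 at 0 and Epcam with 2, 0, 0 and 0 counts. The others were low: Krt8 had 90, 56, 56 and 48 counts, Krt19 had 2, 18, 2 and 0, and Lgals4, Krt20 and Vil1 had from 7 to 27. The 6 fibroblast and mesenchymal markers were mixed. Vim had 74838 to 81307 counts, Fn1 13791 to 20142 and Col3a1 2233 to 3238. Col1a1, with 29 to 66, Pdgfrb, with 50 to 93, and Dcn, with 52 to 72, were low like Krt8. Markers of antigen-presenting and other immune cells were low, with 6 of 12 at or under the floor everywhere and Itgam, Adgre1 and Ms4a1 at 0. They summed to 263, 267, 203 and 217 counts, of which Zbtb46 and Lyz2 made most, and 0 of the 4 tested changed with IFN-γ or hypoxia. Ptprc, which encodes CD45, had 11, 7, 12 and 2 counts.

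Effects of IFN-γ and of hypoxia were tested together by edgeR's quasi-likelihood test over the 4 libraries, with Benjamini-Hochberg adjustment over 13580 genes and a threshold of 0.05. Its spread comes only from departures of the 4 libraries from an additive pattern, so a p-value does not stand for replicate cultures. H2-Ab1 and H2-DMb2 did not pass the filter on low counts. IFN-γ raised 5 of the 7 genes tested and lowered 0, against 4.76% raised and 1.1% lowered among all genes tested. Their median fitted log2 change was 0.64, that of H2-Eb1, and the median of all genes was −0.01. At an unadjusted p under 0.05, 6 were raised and 0 lowered. DESeq2 called 2 raised (Ciita and H2-Aa) and 0 lowered. Ciita, H2-Aa and Ctss had fewer than 10 counts in at least 1 untreated library and passed the filter through the IFN-γ libraries, so their share of this count was helped by the filter. The other 4 had at least 10 counts in both untreated libraries.

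**Figure D2:**
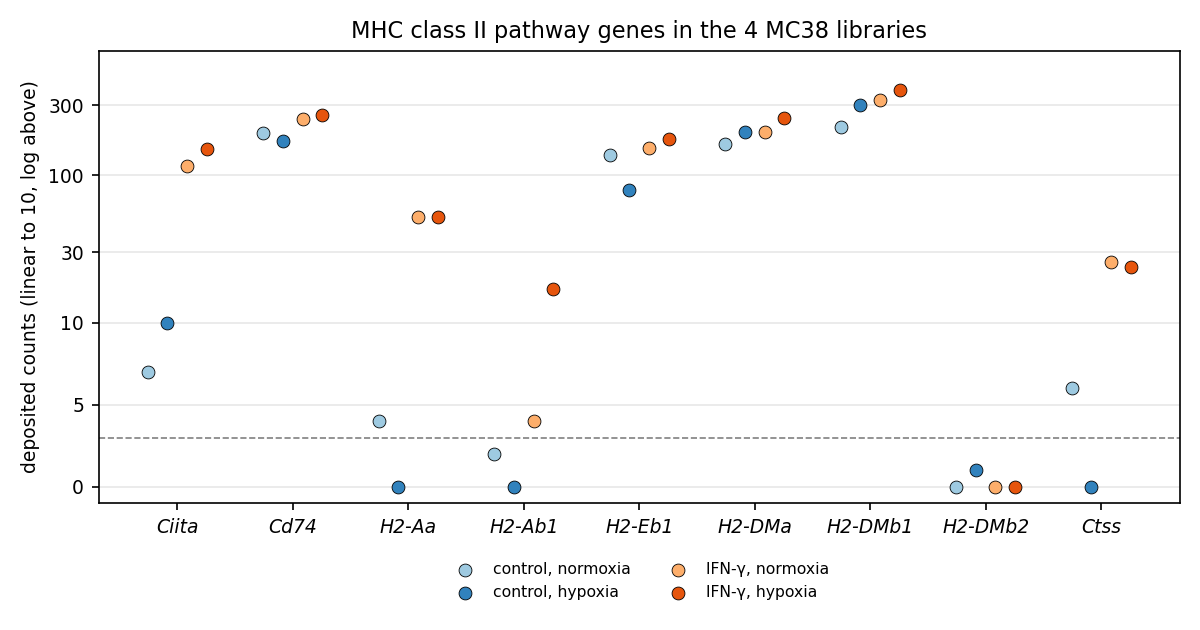
Deposited counts (vertical axis, linear to 10 and logarithmic above) of the 9 genes in each of the 4 libraries, with 1 point per library and a dashed line at 3 counts. Ciita, H2-Aa and Ctss lie at 10 counts or fewer in both untreated libraries and at 24 or more in both IFN-γ libraries, whereas Cd74, H2-DMa and H2-DMb1 lie above 150 everywhere.

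Ciita (NCBI gene 12265, plus strand, chr16:10480014-10531064) was close to silent without IFN-γ and clearly present with it. It had 7 and 10 counts in untreated normoxic and hypoxic cells and 116 and 152 counts in the IFN-γ-treated ones. The IFN-γ libraries lay far above the untreated ones at both oxygen levels. Its fitted change was 15.7-fold, a log2 change of 3.97 ± 0.35 (SE) with an adjusted p of 3.03e-28 (edgeR). In the single pairs the ratio was 16.7-fold in normoxia and 15.3-fold in hypoxia, with 95% counting intervals on the log2 scale of 2.98 to 5.41 and 3.02 to 5.03. The call was made in each of the 6 alternative fits that kept the gene, with adjusted p from 3.76e-11 to 0.00179. Ciita overlaps Dexi, on the opposite strand, which had 262, 216, 280 and 300 counts, and whether the counting used strand is not given in the sources used here.

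The transcripts most like Ciita over the 4 libraries were those of IFN-γ-inducible GTPases. By distance between centred log2 CPM profiles, the nearest of 11311 genes were Gbp7 (0.147), Irgm2 (0.188), Gbp3 (0.298) and Igtp (0.355), followed by Zbp1 (0.459), which encodes a nucleic acid sensor. Gbp7 had 348, 475, 5872 and 7769 counts. These genes were picked for their likeness. The measure covers 4 libraries only, and the profile of Ciita rests on 7 and 10 counts in untreated cells.

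Among the classical chains, H2-Aa stood out. H2-Aa (gene 14960, minus strand, chr17:34282744-34287823), the α chain of I-A, had 4 and 0 counts in untreated cells and 52 and 52 after IFN-γ. Both IFN-γ libraries were far above both untreated ones and equal to each other. The ratio was 13.1-fold in normoxia and at least 17.5-fold in hypoxia, where the untreated library was at 0 and 3 counts were taken in its place. The fitted change of a gene with such a library depends on the small count that edgeR adds. Its fitted log2 change was 4.64 ± 0.62 (SE), with an adjusted p of 5.16e-12 (edgeR). It was called in all 6 alternative fits that kept it, with adjusted p from 9.35e-07 to 0.0265.

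H2-Ab1 (gene 14961, plus strand, chr17:34263227-34269418), the β chain that pairs with H2-Aa, had few counts in every library. It had 2 and 0 counts in untreated cells, 4 in IFN-γ-treated normoxic cells and 17 in IFN-γ-treated hypoxic cells. Only the library with both stimuli was well above the floor. In the normoxic pair the log2 ratio was 0.86, with a counting interval of −1.79 to 4.48, and in the hypoxic pair the gene was at least 5.72-fold higher with IFN-γ. Between the IFN-γ libraries it was 4.25-fold higher in hypoxia, a log2 ratio of 1.96 (0.47 to 4.12). This interval took in 0 once counts were divided by 2 (−0.32 to 5.27). The latter was done because low counts were mostly even, 65.4% to 69.1% of those from 1 to 4, as would happen if both reads of a pair were counted, so intervals on the counts as deposited may be too narrow.

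H2-Eb1 (gene 14969, plus strand, chr17:34305867-34316674), the β chain of I-E, was present without IFN-γ, unlike both I-A chains. Its counts were 137 and 80 in untreated and 154 and 176 in IFN-γ-treated cells. The untreated hypoxic library was the low one, and the other 3 lay close together. IFN-γ raised it 1.56-fold over both oxygen levels, a log2 change of 0.64 ± 0.19 (SE) with an adjusted p of 0.0160 (edgeR). This call was lost in all 7 alternative fits, with adjusted p from 0.0611 to 0.9999. The ratio was 1.14-fold in normoxia (log2 0.18, −0.16 to 0.53) and 2.22-fold in hypoxia (log2 1.15, 0.76 to 1.55). An annotated antisense gene, Gm20513, overlaps H2-Eb1, so part of its counts could belong to that transcript.

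The partner of H2-Eb1, H2-Ea, is annotated as a pseudogene in the reference strain, and it had 0, 0, 2 and 0 counts. H2-Eb2 had 0, 0, 0 and 2, and H2-Ob, the β chain of the H2-DM inhibitor H2-O, had 0 in every library. H2-Oa, the α chain of H2-O, had 32, 27, 15 and 31 counts, a fitted log2 change of −0.37 ± 0.43 (SE) with IFN-γ (adjusted p = 0.840, edgeR). Thus 1 of these 4 other class II genes, H2-Oa, had enough counts for the test, and it was not called.

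Cd74 (gene 16149), the invariant chain, lies outside the MHC on chromosome 18 at 60803849 to 60812652. It was expressed in every library, with 195 and 171 counts in untreated and 241 and 256 in IFN-γ-treated cells. The IFN-γ libraries were higher by a small margin. Its fitted change of 1.37-fold, log2 0.46 ± 0.15 (SE), narrowly missed the threshold (adjusted p = 0.0505, edgeR), and in the 7 alternative fits the adjusted p ran from 0.0845 to 0.9999. Single pairs gave 1.25-fold in normoxia (log2 0.32, 0.04 to 0.60) and 1.51-fold in hypoxia (log2 0.59, 0.31 to 0.88). With counts divided by 2, the first interval ran from −0.09 to 0.71.

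H2-DMa and H2-DMb1 had more counts in every library than any of the classical chains, without regard to length. In untreated normoxic cells H2-DMa had 2.385 CPM per kb of its longest transcript and H2-Eb1 2.393. With the median transcript length the values were 6.58 and 3.69. H2-DMb1 (gene 14999, plus strand, chr17:34153191-34160229), a β chain of H2-DM, had 212 and 302 counts in untreated and 323 and 380 in IFN-γ-treated cells. All 3 treated libraries were above the untreated normoxic one. IFN-γ raised it 1.39-fold, log2 0.48 ± 0.13 (SE) with an adjusted p of 0.00656 (edgeR). This call was lost with DESeq2 (adjusted p = 0.802) and with oxygen left out of the model (0.888). The ratio was 1.54-fold in normoxia and 1.27-fold in hypoxia, with log2 intervals of 0.37 to 0.88 and 0.12 to 0.57.

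H2-DMb2 (gene 15000, plus strand, chr17:34143229-34151553), the other β chain gene, had 0, 1, 0 and 0 counts. The paralogs are alike in sequence, with 31.4% of the 31-base words of H2-DMb1 also present in another gene and 36.6% of those of H2-DMb2, so their division is uncertain. Nearly all counts went to H2-DMb1. H2-DMa (gene 14998, plus strand, chr17:34119693-34139101), the α chain, had 164, 198, 198 and 245 counts. Its lowest library was the untreated normoxic one, its highest the library with both stimuli, and the libraries with 1 stimulus were equal. IFN-γ gave a fitted log2 change of 0.30 ± 0.16 (SE) that did not pass the test (adjusted p = 0.372, edgeR). H2-DMa overlaps Brd2 on the opposite strand, which had 10805 to 12939 counts, and shares 9.23% of its words with other genes.

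Ctss (gene 13040, plus strand, chr3:95526786-95556405), cathepsin S, had 6 and 0 counts in untreated cells and 26 and 24 with IFN-γ. The IFN-γ libraries were alike and above both untreated ones. The ratio was 4.38-fold in normoxia and, against the floor, at least 8.07-fold in hypoxia. The fitted log2 change was 3.06 ± 0.69 (SE) with an adjusted p of 0.000276 (edgeR). It was no longer called by DESeq2 (adjusted p = 0.160) or without oxygen in the model (0.291).

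**Figure D3:**
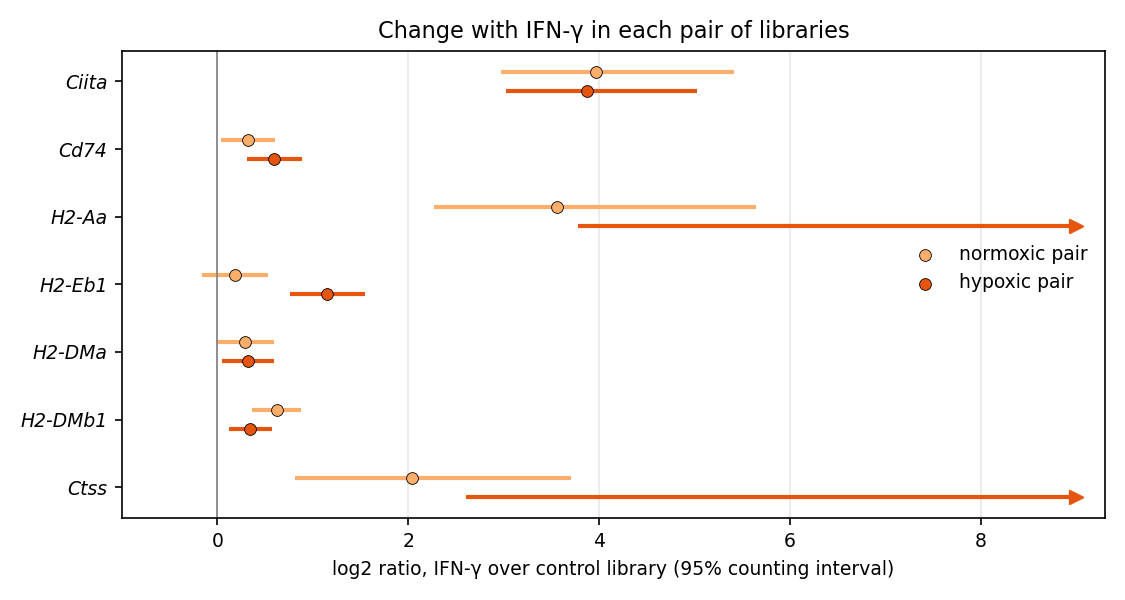
Log2 ratio of the IFN-γ over the untreated library (horizontal axis) for the 7 genes tested, in the normoxic and the hypoxic pair, with 95% counting intervals. Bars end in arrows where the untreated library had 0 counts. Ciita has 3.97 and 3.87, and the ratios of H2-Eb1 are 0.18 and 1.15.

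Levels can be compared between genes only per length. In IFN-γ-treated normoxic cells, H2-DMb1 had 6.66 CPM per kb of its longest transcript, Cd74 4.95, H2-DMa 2.86 and H2-Eb1 2.67. Ciita followed with 0.559, Ctss with 0.556, H2-Aa with 0.467 and H2-Ab1 with 0.0956. H2-DMb1 was highest and H2-Ab1 the lowest of these 8 whether the longest or the median transcript length was used. The order between them was not fixed: with the median length H2-Aa was at 1.54 and Ciita at 0.870, and H2-DMa at 7.89 passed Cd74 at 5.70. No replicate spread is available to separate neighbours such as Ciita and Ctss. In IFN-γ-treated hypoxic cells H2-Aa was at 0.469 and H2-Ab1 at 0.408 with the longest transcript, and at 1.55 and 0.678 with the median one. With either length, H2-Aa was below the accessory genes H2-DMa, H2-DMb1 and Cd74 in normoxic IFN-γ-treated cells.

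The MHC class I genes of the same cells gave the scale of an IFN-γ response. All 10 class I comparison genes were raised by IFN-γ, against 4.76% of all genes tested, with a median fitted log2 change of 1.95. The calls of these genes and of the gene lists below were not set against the alternative fits. H2-K1, a class I heavy chain, had 660 CPM per kb in untreated and 1180 in IFN-γ-treated normoxic cells, and rose by a log2 change of 0.83 ± 0.04 (SE, adjusted p = 8.19e-74, edgeR). Nlrc5, which encodes the transactivator of class I genes and belongs to the same protein family as CIITA, went from 4.28 to 23.8 CPM per kb in normoxia. Its fitted log2 change was 2.66 ± 0.07 (SE), against 3.97 for Ciita, which reached 0.559 on the same level scale.

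**Figure D4:**
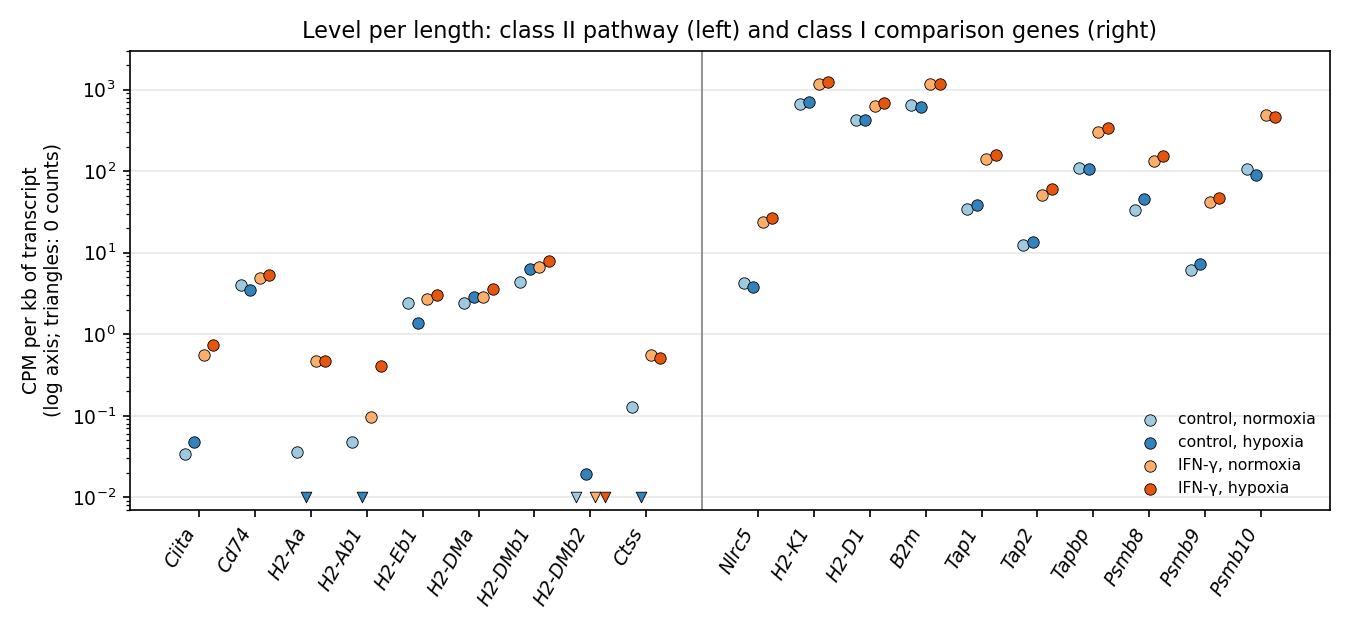
CPM per kb of the longest transcript (vertical log axis) in the 4 libraries for the 9 class II pathway genes (left) and 10 class I comparison genes (right), with triangles for libraries at 0 counts. In IFN-γ normoxic cells H2-DMb1, the highest class II pathway gene, is at 6.66 and H2-K1 at 1180.

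Along chromosome 17, class II genes with small or undetected IFN-γ changes stand next to class I genes with large ones. The stretch from H2-K1 to H2-Ea held 23 genes of the table, 6 of them class II pathway genes. Of the 17 others, 12 were tested and 5 were raised by IFN-γ (H2-K1, Psmb9, Tap1, Psmb8 and Tap2), with 0 lowered. Among all genes tested, 4.76% were raised and 1.1% lowered. Psmb9, Tap1, Psmb8 and Tap2, which make and transport peptides for class I, lie between H2-DMb1 and H2-Ob. Their fitted log2 changes were 2.76 ± 0.07, 2.04 ± 0.05, 1.86 ± 0.06 and 2.11 ± 0.06 (SE). H2-DMb1 on one side had 0.48, H2-Ob on the other side 0 counts, and H2-Aa, beyond H2-Ab1, 4.64.

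**Figure D5:**
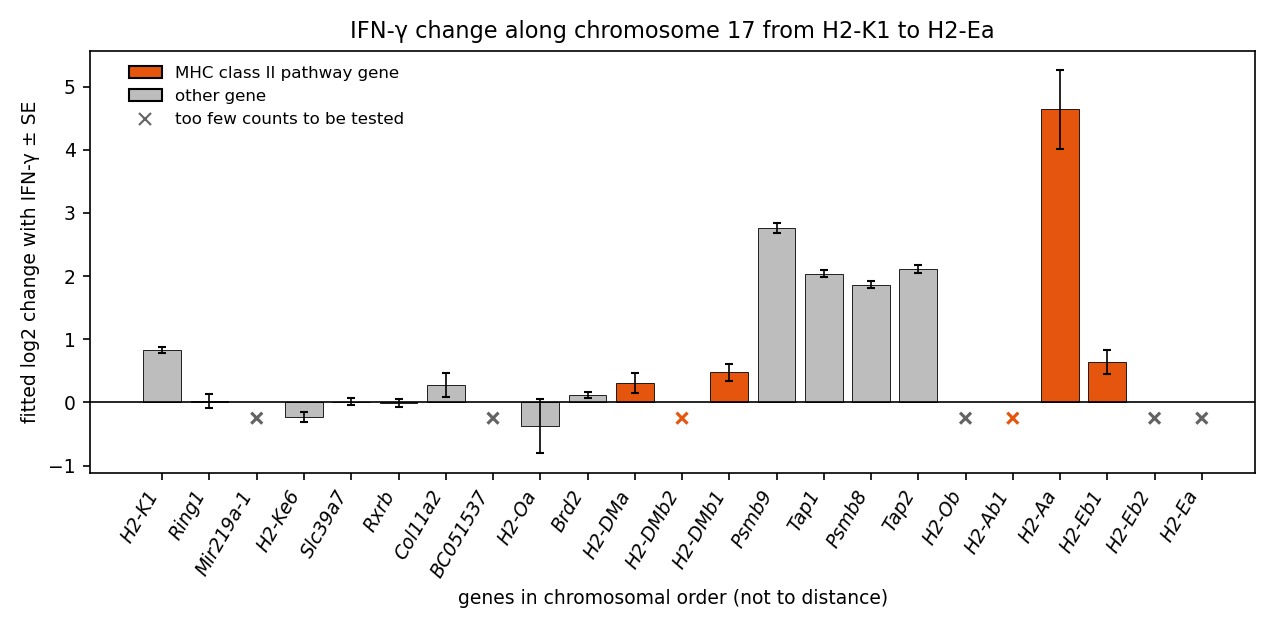
Fitted log2 change with IFN-γ ± SE (vertical axis) for the 23 genes from H2-K1 to H2-Ea in chromosomal order, with class II pathway genes in orange and other genes in grey, and crosses for genes with too few counts to be tested. H2-Aa, at 4.64, is separated from H2-DMb1, at 0.48, by Psmb9, Tap1, Psmb8 and Tap2, at 1.86 to 2.76.

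Upstream of Ciita, transcripts of transcription factors and of 1 kinase were raised, and those of the receptor chains were not. Of 7 genes from the receptor to the Ciita promoter, IFN-γ raised 4 and lowered 1, against 4.76% and 1.1% of all genes tested. Irf1, a transcription factor that acts on the Ciita promoter, had 3770 and 4422 counts in untreated and 20118 and 23759 in IFN-γ-treated cells, a fitted log2 change of 2.43 ± 0.05 (SE). Irf2 rose by 0.79, Usf1 by 0.77 and the kinase Jak2 by 0.56, and the receptor chain Ifngr1 fell by 0.25 on the log2 scale (adjusted p = 0.0309, edgeR). Ifngr2, with −0.18, and the kinase Jak1, with −0.01, did not pass the test. The median of the 7 was 0.56.

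The factors that CIITA needs at class II promoters were present in every library. Of the 7 genes for RFX, NF-Y and CREB1, IFN-γ raised 1 and lowered 0, against 4.76% and 1.1% of all genes tested. The 7 had a median log2 change of 0.00. The one raised was Rfx5, the DNA-binding subunit of RFX, with 418, 458, 677 and 768 counts and a log2 change of 0.73 ± 0.10 (SE, adjusted p = 1.41e-11, edgeR). Among 7 genes for repressors of Ciita or of chromatin, IFN-γ raised Prdm1 and no other, and lowered 0. Prdm1, which encodes the repressor Blimp-1, had 2, 12, 12 and 38 counts and changed by 1.87 ± 0.59 (SE, adjusted p = 0.0305, edgeR). Its counts were few, and the call was not set against the alternative fits. Ezh2, Dnmt1 and the histone deacetylases Hdac1 and Hdac2 differed by at most 0.05 in size on the log2 scale.

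Apart from Ctss, the proteases that work with class II changed little. Of 12 genes for endolysosomal processing, 10 were tested. IFN-γ, which raised 4.76% and lowered 1.1% of all genes tested, lowered 0 of these 10 and raised 1. This was Sppl2a, the protease that cuts the last stub of the invariant chain, with a log2 change of 0.29 ± 0.06 (SE, adjusted p = 7.83e-05, edgeR). Ctsl, which encodes the cathepsin that trims the invariant chain in thymic epithelium, had 26342, 26586, 27304 and 26192 counts, in contrast to the few of Ctss. Ifi30, which encodes the thiol reductase GILT, differed by −0.06 with IFN-γ and fell by 0.23 on the log2 scale with hypoxia (adjusted p = 0.00145). Of 8 genes for class II traffic and turnover, IFN-γ raised 1, Marchf1, which encodes the ligase that marks surface class II for removal. Marchf1 had 14, 6, 37 and 46 counts and a log2 change of 2.06 ± 0.48 (SE, adjusted p = 0.000464, edgeR). With only 6 counts in untreated hypoxic cells, its call was not set against the alternative fits either.

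Fewer of the class II genes passed the test for hypoxia. Hypoxia raised 1 of the 7 tested, H2-DMb1, and lowered 0, against 8.21% raised and 6.83% lowered among all genes tested. At an unadjusted p under 0.05 the numbers were again 1 and 0, and DESeq2 called 0 in either direction. Their median log2 change with hypoxia was −0.04, and that of all genes 0.00. H2-DMb1 changed 1.29-fold, log2 0.36 ± 0.13 (SE, adjusted p = 0.0382, edgeR), and this call was lost in 7 of 8 alternative fits, with adjusted p up to 0.526. H2-DMa had a log2 change of 0.29 ± 0.16 (adjusted p = 0.222) and Ciita one of 0.41 ± 0.30 (adjusted p = 0.410). Cd74, with −0.04 ± 0.15, had an adjusted p of 0.907.

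Among the other genes of the pathway, hypoxia raised 4 of the 7 from the IFN-γ receptor to Ciita and lowered 0. Over all genes tested it raised 8.21% and lowered 6.83%, and these list calls were not set against the alternative fits. Ifngr1 rose by 0.24, Jak1 by 0.29, Jak2 by 0.30 and Irf1 by 0.24 on the log2 scale. Of the 7 for RFX, NF-Y and CREB1 it raised Rfxap by 0.27 (adjusted p = 0.0141, edgeR), and Nfyc fell by 0.22 (adjusted p = 0.00878). Prdm1 rose by 1.86 ± 0.59 (SE, adjusted p = 0.0162) from the few counts given above. Of the 8 traffic genes, hypoxia raised the tetraspanin genes Cd82 and Cd37, the second with only 0, 20, 4 and 10 counts.

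When cells with IFN-γ were compared alone, the hypoxic library had more counts for Ciita (log2 ratio 0.39, 0.03 to 0.75), H2-DMa (0.31, 0.03 to 0.59) and H2-DMb1 (0.24, 0.02 to 0.45). All these lower bounds fell below 0 with counts divided by 2. H2-Aa had the same count in both, a log2 ratio of 0.00 (−0.58 to 0.58), and Ctss differed by −0.11 (−0.98 to 0.74). Between the untreated libraries, H2-DMb1 was higher in hypoxia by 0.51 (0.25 to 0.77) and H2-Eb1 was lower, with a log2 ratio of −0.77 (−1.19 to −0.37), and these intervals left out 0 also with counts divided by 2.

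Whether hypoxia altered the IFN-γ response was read from the difference between the IFN-γ changes, in hypoxia minus normoxia, on the log2 scale. It was not tested, since no replicate measures its spread. The interval from counting error left out 0 for 1 of the 7 genes, against 30.3% of all genes tested. That gene was H2-Eb1, with a difference of 0.96 (0.46 to 1.47), or 0.25 to 1.68 with counts divided by 2. It rests on the 80 counts of the untreated hypoxic library. Cd74, H2-DMa and H2-DMb1 were the 3 with 100 or more counts in each library. Cd74 differed by 0.27 (−0.11 to 0.66), H2-DMa by 0.03 (−0.37 to 0.44) and H2-DMb1 by −0.28 (−0.61 to 0.05). Thus 0 of 3 intervals left out 0, against 34.5% of 10443 such genes, or 20.1% of them with counts divided by 2. The central 95% of those genes lay between −0.36 and 0.40. For Ciita the difference was −0.10, with an interval of −1.49 to 1.30, so an appreciable difference in either direction was not detectable at this depth.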

How the data were processed

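RNA of MC38 cells was sequenced as strand-specific, poly-A selected, paired-end libraries on a DNBSEQ instrument, with 1 library per condition. Reads were aligned with HISAT2 according to the study's methods, and the submitters' processing notes name featureCounts and mm10. Their versions, the strand setting and the treatment of reads that match several genes are not given in the sources used here. The authors deposited whole-number counts per NCBI gene ID, not normalized, in 1 table of 27179 genes, of which 25275 matched a RefSeq symbol. Every column belonged to a labelled sample.

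Counts were tested with edgeR 4.0.16 in R 4.3.3 (quasi-likelihood test, TMM, filter at its default minimum of 10 counts), in an additive model of oxygen and IFN-γ with 1 residual degree of freedom and a common dispersion of 0.00222, a coefficient of variation of 4.71%. SEs were taken from each log2 change and its F statistic. Because conditions are single samples, the spread behind the p-values comes only from departures from additivity. Ratios within a pair of libraries used TMM-scaled CPM after adding 0.5 counts, with exact (Clopper-Pearson) 95% intervals that cover counting error only. Lengths came from GENCODE M21 and positions and promoters from RefSeq, both on GRCm38, the assembly of mm10. The alternatives were DESeq2 1.42.0, its size factors, other filters, total counts, no second term, single pairs, 5 counts added, summed H2-DM genes, median transcript lengths and, chosen after seeing the data, counts divided by 2. The 9 genes and all lists were chosen with earlier results of these data known. The text names these 9, list members that passed the test or whose role it needs, the 5 nearest genes by profile with a mean of at least 50 counts, and chromosome 17 neighbours. An item of the fixed lists and motifs is not reported here, and the counts of its list leave it out.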

Additional observations from a re-analysis of the deposited data

Results flagged for a closer look

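For 2 of the class II genes the hypoxia change had opposite signs without and with IFN-γ. Cd74 differed by a log2 ratio of −0.186 between the hypoxic and the normoxic library of untreated cells and by 0.0883 between those of IFN-γ-treated cells, and both counting intervals took in 0. H2-Eb1 differed by −0.770 in untreated and by 0.194 in IFN-γ-treated cells, and only the first interval left out 0. With 1 library per condition, the difference was not tested for either gene.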

How the results depend on the processing

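Ciita and H2-Aa kept their IFN-γ call in all 6 alternative fits that retained them. Ciita, H2-Aa and Ctss dropped out when at least 10 counts were asked of every library. The number of these genes raised by IFN-γ went from 5 to 2 with DESeq2's Wald test, to 1 with at least 10 counts in every library, to 2 without the other stimulus in the model, and to 4 with DESeq2's size factors, no filter, total counts or counts divided by 2. The number raised by hypoxia went from 1 to 0 with DESeq2's size factors, DESeq2's Wald test, no filter, at least 10 counts in every library, no second stimulus in the model, total counts and counts divided by 2. H2-DMb1 kept this call when summed with H2-DMb2 (adjusted p = 0.0366, edgeR). Over all genes, those raised by IFN-γ went from 647 to 353 (DESeq2) and 239 (no second stimulus). Those lowered went from 149 to 99 (DESeq2's size factors), 16 (DESeq2), 71 (no filter), 74 (at least 10 counts in every library) and 3 (no second stimulus). Genes raised by hypoxia went from 1115 to 360 (DESeq2) and 150 (no second stimulus), and those lowered from 927 to 203 and 26. No called change was reversed. The hypoxia changes of H2-Eb1, Cd74 and H2-Aa, which were not called, went from −0.24, −0.04 and −0.23 over both IFN-γ states to 0.19, 0.09 and 0.00 in the IFN-γ pair alone. Of all values set against an alternative, 201 stayed, 63 moved and 18 lost a call, and the cause was not tested. With 5 counts added in place of 0.5, the hypoxic-pair log2 ratios of H2-Aa and Ctss were 3.52 and 2.54. Without a filter, H2-Ab1 could be fitted and had an adjusted p of 0.505 for IFN-γ (edgeR). No paired analysis was possible because every group holds 1 library, so replicate numbers pair nothing. The additive model itself compares IFN-γ with control within each oxygen level, and leaving out the second stimulus is the comparison without it. No library could be left out for the same reason. Depth limits Ciita, H2-Aa, H2-Ab1, H2-DMb2 and Ctss most, whose untreated libraries held 10 counts or fewer.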

Other observations

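The invariant chain also has a role at the cell surface, where CD74 is the receptor for the cytokine MIF and signals through CD44. Of the 6 genes for these ligands and co-receptors, 3 had enough counts for the test, and IFN-γ changed 0 of them by edgeR's test. Hypoxia raised 2. Mif had 25693, 41261, 26081 and 37582 counts in untreated normoxic, untreated hypoxic, IFN-γ normoxic and IFN-γ hypoxic cells, with a log2 change of 0.61 ± 0.05 (SE, adjusted p = 2.75e-35, edgeR). Its paralog Ddt rose by 0.21 (adjusted p = 0.0411). Cd44 had 12548 to 13829 counts and a hypoxia change of −0.01, and the chemokine receptor gene Cxcr4 had 0 counts in every library.

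A CD4+ T cell that meets class II also needs costimulation. Cd80 had 2, 0, 0 and 0 counts and Cd86 4, 4, 0 and 8, so the classical B7 genes were near the floor. Over all genes tested, IFN-γ raised 4.76% and hypoxia 8.21%. Of 7 costimulation genes, 4 were tested. IFN-γ raised 1, Cd40, with 127, 101, 158 and 183 counts and a log2 change of 0.60 ± 0.19 (SE, adjusted p = 0.0253, edgeR). This call was not set against the alternative fits. Hypoxia raised Icosl, the ligand of ICOS, by 0.55 ± 0.17 (adjusted p = 0.00969) and Tnfsf9, the ligand of 4-1BB, by 0.46 ± 0.09 (adjusted p = 4.88e-06).

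The profile of H2-DMb1, the class II gene with most counts, was nearest to those of Megf6 (distance 0.0647), Crebrf (0.0938), Nampt (0.102), Cyp4f41-ps (0.106) and Pcgf5 (0.113) among 11311 genes. Their fitted log2 changes were 0.39 to 0.53 with IFN-γ and 0.33 to 0.46 with hypoxia. They are a different set from the GTPase genes nearest to Ciita.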
